A study of Mus musculus with 8 samples.

Results

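The genes described here are the ligands and receptors of axon guidance in the newborn mouse brain: the ephrins and their Eph receptors, the semaphorins with their plexin and neuropilin receptors, the slits and robos, and the netrins with DCC and the UNC5 receptors. They were taken by symbol from the protein-coding rows of the count table for the C57BL/6J (B) genome, and 68 of its 49585 genes met the rule. The rule used no measured value. *Ntn3* was not analysed here. RNA-seq had been run on the whole brains of 8 newborn female pups, 4 from dams given 0 ppm CdCl2 in their drinking water and 4 from dams given 50 ppm, before and during gestation. All 8 pups came from the same cross of a C57BL/6J mother and a CAST/EiJ father, were labelled postnatal day 1, and each came from a different litter. Exposure was of the dam, so that a pup met cadmium (Cd) only through its mother. The libraries were made from poly(A) RNA of a portion of each pulverized whole brain, which mixes every brain region and cell type, and in such RNA fewer cells of a type and less RNA per cell cannot be told apart.

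The total count of a library lay between 22916434 and 30708087. Levels are given as CPM, the count scaled to the total of its library, after edgeR's TMM normalization, whose factors lay between 0.986 and 1.02. As a check of the tissue, the neuronal genes *Stmn2*, *Map2* and *Dcx* had 1364 to 2127 CPM in every brain, whereas the neuronal tubulin gene *Tubb3* was listed at 0 in all 8, which in this file need not mean that its RNA was absent. A list of brainstem and spinal cord genes summed to 65.3, 76.1, 132 and 150 CPM in the 4 control brains (replicates 1 to 4). The exposed brains had 314, 177, 147 and 164 CPM. The control brains were split, with replicates 1 and 2 far below replicates 3 and 4, and 0 ppm replicate 4 lay within the exposed range. Of the 27 tested genes of this list, 18 were higher at an unadjusted p under 0.05, where 2.31% of all genes were. A list of forebrain genes summed to 1582, 1564, 1107 and 1273 CPM at 0 ppm. At 50 ppm it summed to 1124, 1195, 1362 and 1247 CPM. Of its 20 genes, 8 were lower at that threshold, where 1.44% of all genes were, and none higher. Both lists hold genes, such as *Hoxb8* and *Dlx1*, that the study called from these libraries, and these are no independent evidence. The regions of the brain differ in guidance genes, so these values stand beside every comparison that follows. Their part in each was not tested, other than by models that added each list's score.

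A growing axon is steered by proteins that its growth cone meets on other cells or in the tissue, and the receptors on the growth cone turn that contact into attraction, repulsion or branching. Ephrins are tethered to the cell surface and bind Eph receptor tyrosine kinases, semaphorins act mostly through plexins, slits through robos, and netrins through DCC (attraction) and the UNC5 receptors (repulsion). At birth many long tracts of the mouse brain, such as the corticospinal tract and the corpus callosum, are still growing or being refined.

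None of the 68 guidance genes passed an adjusted p of 0.05 between 50 ppm and 0 ppm by the quasi-likelihood test of edgeR, adjusted by Benjamini-Hochberg over the 23113 genes tested, where 0.0173% of all genes passed. DESeq2 also called 0 of the 68, with 0.0779% of all genes called, and it gave 1 member higher and 6 lower at an unadjusted p under 0.05, where 2.81% of all genes passed. All 68 passed the filter on low counts. At an unadjusted p under 0.05 there were 8 members (11.8%) against 3.75% of all genes tested. The median standard error on the log2 scale was 0.10 over the members and 0.17 over all genes, so these shares rest on unlike precision. Of the 8 members, the 6 that were lower at 50 ppm were *Sema6c*, *Efnb1*, *Sema3c*, *Efnb3*, *Efna2* and *Robo3*, where 1.44% of all genes were lower at this threshold. The 2 that were higher were *Plxnb3* and *Sema3a*, where 2.31% of all genes were. The number lower was 3 without 0 ppm replicate 1 or without 50 ppm replicate 4. The number higher was 4 without 0 ppm replicate 3. It was 1 without 0 ppm replicate 1, 2 or 4 or 50 ppm replicate 2 or 4. The number over all genes also moved, from 866 of 23113 in either direction with all brains. It was 1155 of 22727 without 0 ppm replicate 3, 856 of 22759 without 0 ppm replicate 1 and 729 of 22773 without 50 ppm replicate 4.

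The log2 fold change (50 ppm minus 0 ppm) was negative in 47 of the 68 genes and positive in 21, with a median of -0.05 (-0.01 with the forebrain score in the model). Over all genes tested 51% were negative and the median was -0.003. The median member log2 CPM had a pooled SD of 0.0589 between brains of a dose, and -0.05 is smaller in size than that SD. The SD describes single brains and is larger than the error of a difference between doses, which was not computed. By brain, the median deviation of the members ran from -0.084 in 50 ppm replicate 4 to 0.066 in 50 ppm replicate 3. Members went both ways within these brains. In 50 ppm replicate 4, 14 members had their lowest value and 8 their highest. In 50 ppm replicate 3, 15 had their highest value and 7 their lowest. The 4 exposed brains all lay below the 4 control brains in 2 members, *Sema6c* and *Efnb1*, and in 0.904% of all genes (2.09% of all genes were apart in either direction). No member had its exposed brains all above the controls, which 1.19% of all genes had. The differences were small and were measured with a median standard error of 0.10 on the log2 scale. For 60 of the 68 genes the 95% interval of the log2 fold change lay within 0.5 on both sides of 0. The 8 whose intervals reached beyond 0.5 on either side were *Epha1*, *Epha2*, *Epha10*, *Ntn1*, *Ntn5*, *Plxnb3*, *Robo3* and *Sema3d*. For these a larger difference was not excluded. In *Ntn1* the reads were many and the spread between brains was wide, with 87.2 ± 24 CPM (SD, n = 4) at 0 ppm. Between brains of 1 dose the median gene had a coefficient of variation of 9.97% at 0 ppm and 11% at 50 ppm.

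**Figure D1:**
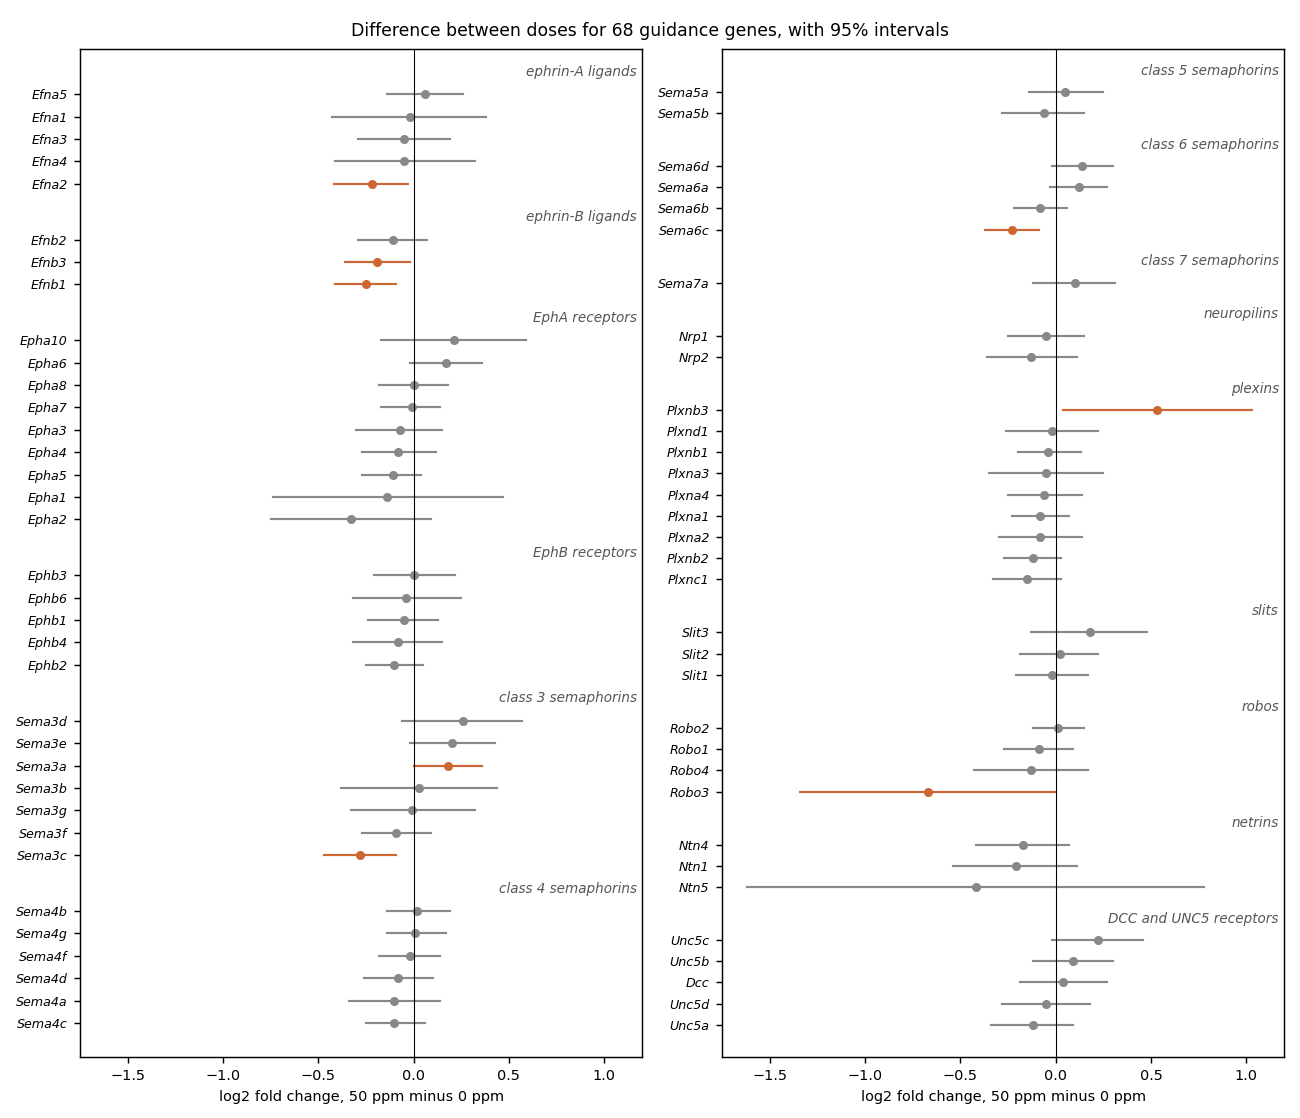
Log2 fold change of each of the 68 guidance genes between 50 ppm and 0 ppm, by family, with points for estimates and lines for 95% intervals from edgeR's quasi-likelihood test. The 8 genes in orange had an unadjusted p under 0.05 and none of the 68 passed after adjustment; the point estimates span -0.67 (*Robo3*) to 0.53 (*Plxnb3*).

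*Sema6c* (ENSMUSG00000038777) is on the plus strand of chromosome 3 (GRCm38, 95160457 to 95174024) and encodes a transmembrane semaphorin of class 6. It had 115, 111, 109 and 108 CPM in the 4 control brains and 99.6, 97.3, 88.5 and 91.8 CPM in the 4 exposed brains. Every exposed brain was below every control brain. The mean of the control brains was 111 ± 2.95 CPM (SD, n = 4), and that of the exposed brains 94.3 ± 5.09 CPM (SD, n = 4). The fitted log2 difference was -0.23 (standard error 0.07, 95% interval -0.37 to -0.09), the smallest p-value of the members (adjusted p = 0.789 from edgeR). With each brain left out in turn it lay between -0.26 and -0.20. *Sema6c* was 1 of 2 members whose identifier in the table for the CAST/EiJ (C) genome could be named. There its log2 fold change was -0.23 (standard error 0.06, adjusted p = 0.737 from edgeR). That table holds the same libraries aligned again, so it is no independent evidence.

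*Efnb1* (ENSMUSG00000031217) is on the plus strand of the X chromosome (99136130 to 99148991) and encodes ephrin-B1, a transmembrane ligand of EphB receptors. The control brains had 55.7, 50.3, 49 and 48.2 CPM and the exposed brains 42.8, 43.5, 44.4 and 40.6 CPM. The doses again did not overlap, and all the exposed brains were below 48.2 CPM, the lowest control. The estimated log2 fold change was -0.25 (standard error 0.08, 95% interval -0.41 to -0.09, adjusted p = 0.93 from edgeR). With 1 brain left out it ranged from -0.27 to -0.20, and with the brainstem and spinal cord score in the model it was -0.13.

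A window of 250 bases upstream of each of these genes is shown because they are the members whose doses did not overlap. The windows end at 99136060 for *Efnb1* and 95160419 for *Sema6c*. They stop short of the GENCODE starts given above, 99136130 and 95160457. The sequences are from RefSeq (GRCm38.p6, plus strand, 5′ to 3′), with capitals for matches to TGCACNC or TGCGCNC, the core of the metal response element, on either strand. AGGTCA (bound by retinoic acid receptors) and ACGTG (the core of the hypoxia response element) were also searched on both strands, and neither was found in them.
*Efnb1*, chrX:99135811-99136060: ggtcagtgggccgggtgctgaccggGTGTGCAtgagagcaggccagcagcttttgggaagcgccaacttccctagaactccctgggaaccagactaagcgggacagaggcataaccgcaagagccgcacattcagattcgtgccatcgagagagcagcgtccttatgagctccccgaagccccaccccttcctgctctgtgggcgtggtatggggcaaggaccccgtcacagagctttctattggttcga
*Sema6c*, chr3:95160170-95160419: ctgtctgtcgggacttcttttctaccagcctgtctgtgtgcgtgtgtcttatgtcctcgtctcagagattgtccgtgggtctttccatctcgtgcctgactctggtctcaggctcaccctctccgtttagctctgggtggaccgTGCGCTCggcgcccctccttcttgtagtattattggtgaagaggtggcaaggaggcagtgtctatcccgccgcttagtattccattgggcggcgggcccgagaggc

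Each window held 1 match to the metal response core. The table of starts holds a second start for *Sema6c*, whose window held no match to any of the 3 motifs. The table covers 58 of the 68 members, and 19 of these (32.8%) had the metal response core in at least 1 window against 23.8% of all 27025 genes. AGGTCA was found for 11 members (19%) and 15.8% of all genes, and ACGTG for 11 members (19%) and 18.5% of all genes. ACGTG can overlap a TGCACNC or TGCGCNC match. Matches are counts of letters and say nothing of binding.

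**Figure D2:**
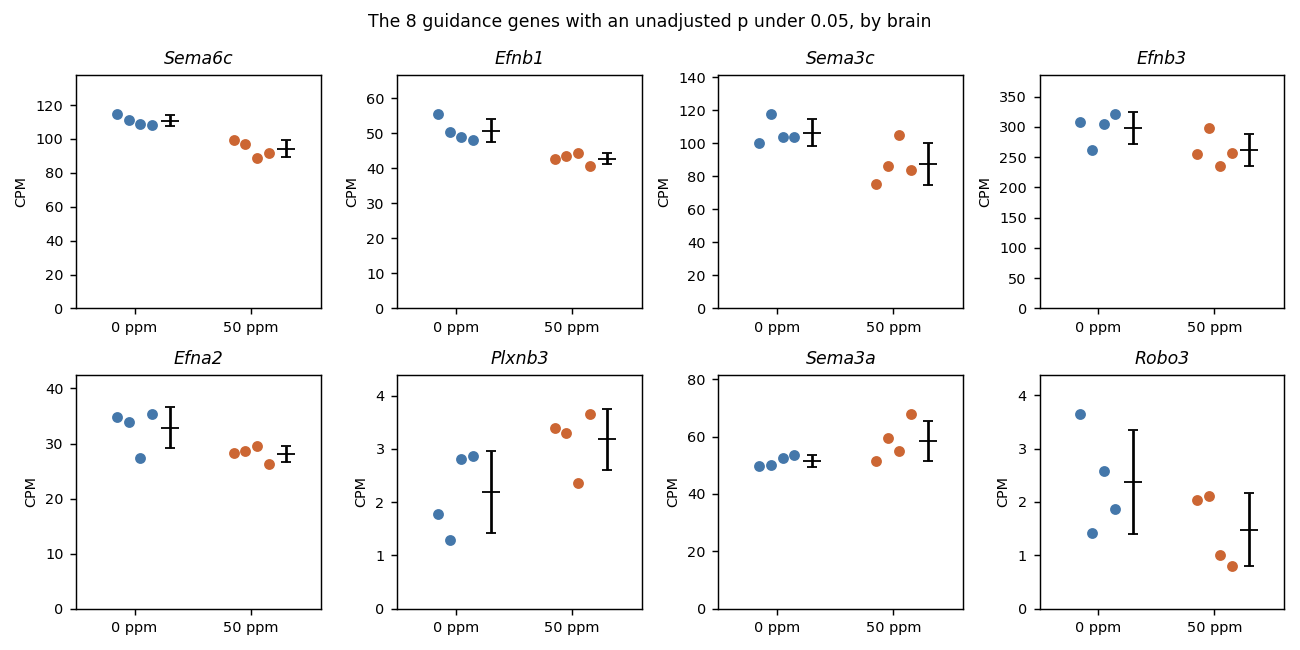
CPM of the 8 guidance genes with an unadjusted p under 0.05, with 1 point per brain (replicates 1 to 4 from left to right) for 0 ppm (blue) and 50 ppm (orange) and bars for the mean and SD of 4 brains. The doses are apart only in *Sema6c* and *Efnb1*, and in the other 6 genes at least 1 exposed brain lies within the range of the controls.

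Among the ephrins, 7 of the 8 genes had a negative log2 fold change, where 51% of all genes tested did. Of the 7, 3 had an unadjusted p under 0.05, where 1.44% of all genes were lower at that threshold. The ephrin-B ligands, which span the membrane and can also signal into the cell that carries them, were all negative (median -0.19, range -0.25 to -0.11). *Efnb3*, which acts as a midline barrier in the spinal cord, was the most abundant of the 68 genes per length of exon. It had 308, 261, 304 and 322 CPM in the control brains and 255, 298, 235 and 257 CPM in the exposed brains. The groups overlapped through 0 ppm replicate 2 and 50 ppm replicate 2. Its log2 fold change was -0.19 (standard error 0.08, 95% interval -0.36 to -0.02, adjusted p = 0.999 from edgeR). With the brainstem score it was -0.26 and with the forebrain score -0.27, and with 1 brain left out it lay between -0.26 and -0.14. Of the 16 alternatives, 11 gave *Efnb3* an unadjusted p under 0.05.

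The ephrin-A ligands are held to the membrane by a lipid anchor and bind EphA receptors, and they are known for mapping retinal and cortical projections. Of these 5 genes, 4 had a negative log2 fold change and 1 a positive one. *Efna2* (chromosome 10, 80179482 to 80190010) had 34.8, 34, 27.3 and 35.4 CPM in the control brains and 28.2, 28.6, 29.5 and 26.2 CPM in the exposed brains. Only 0 ppm replicate 3 lay within the exposed range. On the log2 scale the difference was -0.22 (standard error 0.09, adjusted p = 0.999 from edgeR), and -0.30 without 0 ppm replicate 3. Adding either regional score gave -0.13. *Efna3*, the highest ephrin-A per length, had 42.8, 35, 34.1 and 36.5 CPM in the unexposed and 45, 35.4, 29.8 and 33 CPM in the exposed brains, so that the doses overlapped throughout. Its log2 fold change was -0.05 (standard error 0.11). Genes on the other strand share 14.1% of the exonic bases of *Efna3* and 10.5% of those of *Efna4*, and since the strand setting of the counting is not given in the sources used here, their counts are uncertain.

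None of the 14 Eph receptor genes had an unadjusted p under 0.05, where 3.75% of all genes did. Of the 14, 11 were negative, where 51% of all genes tested were, and the median was -0.06. *Epha4*, a receptor for ephrins of both classes that is needed for the corticospinal tract, was the highest EphA receptor per length of exon. It had 222, 226, 195 and 198 CPM in the unexposed and 182, 170, 240 and 205 CPM in the exposed brains. The highest and the lowest value were both in exposed brains, and the log2 fold change was -0.08 (standard error 0.09). *Ephb1* was the highest EphB receptor per length of exon. It had 132, 166, 160 and 162 CPM in the unexposed and 128, 152, 168 and 148 CPM in the exposed brains. Its log2 fold change was -0.05 ± 0.09 (SE). *Epha6* had the smallest p-value of the Eph receptors (adjusted p = 0.999 from edgeR). Its values were 25.1, 21.4, 25.7 and 25.1 CPM in the unexposed and 27.7, 25.6, 27.4 and 28.6 CPM in the exposed brains, with a log2 fold change of 0.17 ± 0.09 (SE, 95% interval -0.02 to 0.36). It was 0.11 without 0 ppm replicate 2, 0.11 with the brainstem score and 0.07 with the forebrain score.

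The 20 semaphorin genes were 10 positive and 10 negative, with a median log2 fold change of 0.00. The secreted semaphorins of class 3, which act through neuropilins and plexins A, held members on both sides. *Sema3c* (ENSMUSG00000028780, chromosome 5, 17574281 to 17730268) had 100, 118, 104 and 104 CPM in the control brains. The exposed brains had 75.1, 86.5, 105 and 83.6 CPM, and 50 ppm replicate 3 lay among the controls while the other 3 were below them. The fitted log2 difference was -0.28 (standard error 0.09, 95% interval -0.47 to -0.09, adjusted p = 0.999 from edgeR), and it was -0.37 without 50 ppm replicate 3. In the table for the C genome, from the same libraries, the log2 fold change was -0.27 (standard error 0.09, adjusted p = 0.999 from edgeR). With the forebrain score in the model the log2 fold change was -0.10.

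*Sema3a*, a repellent for cortical and sensory axons, had 49.7, 50, 52.6 and 53.7 CPM in the control brains and 51.6, 59.4, 54.9 and 67.9 CPM in the exposed brains. Of the exposed brains, 3 were above all controls and 50 ppm replicate 1 was within their range. The estimated log2 fold change was 0.18 (standard error 0.09, adjusted p = 0.999 from edgeR), and it was 0.10 without 50 ppm replicate 4. *Sema3e*, the ligand of plexin D1, had 15.7, 15.8, 18.8 and 18.4 CPM in the unexposed and 21.8, 17.4, 20.5 and 19.3 CPM in the exposed brains. Its log2 fold change of 0.20 ± 0.11 (SE, adjusted p = 0.999 from edgeR) was 0.01 with the brainstem score and 0.03 with the forebrain score in the model.

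In class 6, whose members span the membrane and bind plexins A, *Sema6a* and *Sema6d* were positive and *Sema6b* and *Sema6c* negative. *Sema6d* had 118, 124, 144 and 132 CPM in the unexposed and 135, 138, 143 and 155 CPM in the exposed brains for a log2 fold change of 0.14 ± 0.07 (SE, adjusted p = 0.999 from edgeR). Its exposed brains lay from within the control range to above it, and with the brainstem and forebrain scores the log2 fold change was 0.02 and 0.08. *Sema6b* was the highest of the class per length of exon. It had 113, 102, 105 and 109 CPM in the unexposed and 107, 101, 95 and 103 CPM in the exposed brains. Its log2 fold change was -0.08 ± 0.07 (SE).

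The other classes of semaphorin held no gene with an unadjusted p under 0.05. The 6 genes of class 4 lay between -0.10 and 0.02, and *Sema4c* was the highest of them per length of exon. It had 91.7, 97.5, 89.2 and 94.2 CPM in the unexposed and 87.6, 80.6, 98.8 and 81.6 CPM in the exposed brains. The 2 genes of class 5 lay at -0.06 and 0.05, and *Sema5b* had 32.2, 39.8, 41.2 and 37 CPM in the unexposed and 29.7, 39.8, 34.6 and 39.7 CPM in the exposed brains. *Sema7a*, a lipid-anchored semaphorin that promotes axon outgrowth, had 105, 95.2, 77.5 and 87.1 CPM in the unexposed and 102, 91.1, 114 and 82.5 CPM in the exposed brains. In each of these 3 genes the doses overlapped. The log2 fold change of *Sema7a* was 0.10, and it was 0.02 without 0 ppm replicate 3 or 50 ppm replicate 3 and 0.32 with the brainstem score.

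The plexins are the signal-transducing receptors of semaphorins. Of the 9 plexins, 8 had a negative log2 fold change (down to -0.15 for *Plxnc1*), where 51% of all genes tested did. *Plxnb3* was the exception and the highest log2 fold change of all 68 genes. It had 1.78, 1.3, 2.81 and 2.87 CPM in the control brains and 3.4, 3.3, 2.36 and 3.66 CPM in the exposed brains. Of the exposed brains, 3 were above all controls and 50 ppm replicate 3 was within their range. On the log2 scale the difference was 0.53 (standard error 0.24, 95% interval 0.04 to 1.03, adjusted p = 0.999 from edgeR). With the brainstem score in the model it was -0.04, and with the forebrain score 0.03. With 1 brain left out it ranged from 0.36 to 0.69. *Plxnb3* is known from oligodendrocytes, and a list of 14 genes of that lineage summed to 428 to 483 CPM at 0 ppm and 449 to 568 CPM at 50 ppm. In that list 7 genes were higher at an unadjusted p under 0.05, where 2.31% of all genes were. After adjustment 1 passed, where 0.0173% of all genes did. Some genes of the list had been picked from these samples and are no independent evidence. Its part in the *Plxnb3* values was not tested.

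*Plxna1*, the highest plexin, had 432, 404, 390 and 446 CPM in the control brains and 373, 387, 442 and 384 CPM in the exposed brains, with a log2 fold change of -0.08 ± 0.07 (SE). A gene on the other strand shares 10.7% of its exonic bases. The neuropilins bind class 3 semaphorins and lend them to plexins, and neither had an unadjusted p under 0.05. *Nrp2* had 170, 168, 247 and 213 CPM in the unexposed and 158, 214, 177 and 182 CPM in the exposed brains. The control brains fell into 2 lower and 2 higher values on their own, and the log2 fold change was -0.13 (standard error 0.11). It was -0.01 without 0 ppm replicate 3 and -0.38 (standard error 0.14, adjusted p = 1 from edgeR) with the brainstem score in the model.

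The 3 slits, which are secreted repellents of the midline, had log2 fold changes of -0.02 to 0.18. *Slit1*, the highest, had 82.5, 65.1, 92.1 and 84 CPM in the unexposed and 82.3, 80.1, 81.9 and 74.9 CPM in the exposed brains, so the 4 exposed brains lay inside the control range. Their receptor *Robo2* had 363, 369, 343 and 351 CPM in the unexposed and 338, 355, 396 and 353 CPM in the exposed brains for a log2 fold change of 0.01 ± 0.07 (SE, 95% interval -0.12 to 0.15). *Robo3* is the robo that commissural axons of the hindbrain and spinal cord need to cross the midline. It had 3.65, 1.41, 2.58 and 1.86 CPM in the control brains and 2.03, 2.11, 0.999 and 0.794 CPM in the exposed brains. Of the exposed brains, 2 were below all controls and 2 were among them. The fitted log2 difference was -0.67 (standard error 0.32, adjusted p = 0.999 from edgeR) and ranged from -0.88 to -0.38 with 1 brain left out, with -0.38 without 0 ppm replicate 1. With the brainstem score it was -0.46 and with the forebrain score -0.92. Of the 16 alternatives, 8 gave *Robo3* an unadjusted p under 0.05, and it had 18 to 107 reads in a brain. *Robo4*, which is expressed by endothelium, had a log2 fold change of -0.13 ± 0.14 (SE).

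The netrins were all negative, from -0.42 to -0.17, where 51% of all genes tested were negative. None had an unadjusted p under 0.05. *Ntn1*, the attractant of commissural axons, had 69.4, 84.4, 122 and 73.1 CPM in the unexposed and 59.8, 98.8, 74.4 and 68 CPM in the exposed brains. The value of 0 ppm replicate 3 was the highest of the 8. The estimated log2 fold change was -0.21 (standard error 0.16, 95% interval -0.54 to 0.11), and it was -0.01 without that brain. *Ntn5* had 1 to 9 reads in a brain, too few to place it. Of the netrin receptors, *Dcc* had a log2 fold change of 0.04 ± 0.11 (SE), and the 4 UNC5 genes lay between -0.12 and 0.22. *Unc5c*, which keeps granule cells and corticospinal axons on their paths, had 68.9, 88.9, 74.1 and 65.5 CPM in the unexposed and 75.4, 85.7, 109 and 75.1 CPM in the exposed brains. Only 50 ppm replicate 3 was above all controls. Its log2 fold change was 0.22 (standard error 0.11, adjusted p = 0.999 from edgeR), and it was 0.37 with the brainstem score and 0.46 with the forebrain score in the model, each at an unadjusted p under 0.05. Without 50 ppm replicate 3 it was 0.09. *Unc5a* had 60.7, 44, 44.7 and 52.3 CPM in the unexposed and 53.6, 45.9, 42.4 and 43.1 CPM in the exposed brains, which overlapped (log2 fold change -0.12, standard error 0.10, and -0.02 without 0 ppm replicate 1).

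The models with a regional score moved several of these values. With the brainstem score added, 7 members had an unadjusted p under 0.05, where 4.13% of all genes did. Of the 7, *Efnb3* was the 1 gene shared with the 8 above. The other 6 were *Nrp2*, *Plxnd1*, *Sema3d*, *Sema4a*, *Sema7a* and *Unc5c*. With the forebrain score there were 5, where 3.67% of all genes passed, and *Efnb3*, *Robo3* and *Sema6c* were shared and *Sema4a* and *Unc5c* were not. The number of members with a negative log2 fold change was 41 and 37 in these models, against 47 with treatment alone, and the sign turned in 18 and 16 members, many of them near 0. *Epha10* went from 0.21 to -0.32 and -0.21, and *Plxnd1* from -0.02 to 0.34 and 0.16. None of the 68 passed after adjustment in either model. The scores come from the same libraries and differ between the doses, so the dose and the regional makeup of the brains cannot be fully told apart.

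**Figure D3:**
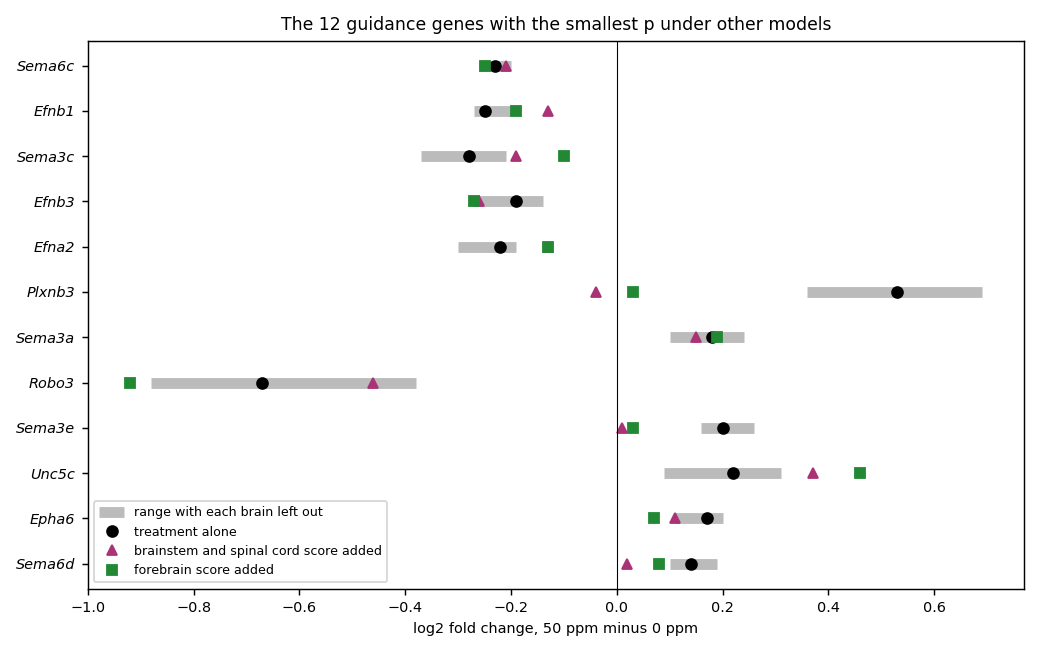
Log2 fold change of the 12 guidance genes with the smallest p under treatment alone (circles), with the brainstem and spinal cord score (triangles) or the forebrain score (squares) added to the model, and its range with each brain left out (grey bars). *Sema6c* stays between -0.26 and -0.20 throughout, while *Plxnb3* moves from 0.53 to -0.04 and 0.03 with the scores.

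Levels between genes were compared as CPM per kb of annotated exon, averaged over the 8 brains. Exon length is the union of all annotated exons of a gene, and the order of genes depends on it. The 68 genes ran from 0.0838 (*Ntn5*) to 88 (*Efnb3*) with a median of 11, and 10 genes were over 20 and 5 under 1. After *Efnb3* came *Plxna1* at 45 ± 3.16 CPM per kb (SD, n = 8). *Efnb3* made up 70.4% of the ephrin-B level, and its lowest brain (73.7) was above the highest brain of *Efnb2* (27.8). *Sema7a* (28.6 ± 3.69), *Sema6b* (26.3 ± 1.34), *Plxnb2* (25.8 ± 2.06) and *Epha4* (25.4 ± 2.91 CPM per kb, SD, n = 8) did not differ beyond their spread.

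Within families the order was clear in some places and not in others. Among the EphA receptors *Epha4* lay above *Epha5* (15.3) in every brain, *Epha5* and *Epha7* (12.6) overlapped, and *Epha2* and *Epha1* were under 1 CPM per kb. *Ephb1* (21.7), *Ephb6* (18.1) and *Ephb2* (14.7) overlapped from neighbour to neighbour, and all 3 were above *Ephb4* (3.71) and *Ephb3* (3.47 CPM per kb). *Efna3* (15) and *Efna2* (14.3) did not differ beyond their spread. Among the class 3 semaphorins *Sema3c* (13.6) was above *Sema3f* (7.32), which was above *Sema3a* (3.96 CPM per kb), each in all 8 brains. From *Plxnb2* down to *Plxnb1* (14.9) 7 plexins overlapped with their neighbours, and *Plxnb3* (0.413 CPM per kb) lay far below them. *Robo2* (21.1) and *Robo1* (16) were above *Robo4* (1.49) and *Robo3* (0.282), and *Slit1* (13.6) was above *Slit3* (2.84) and *Slit2* (2.25 CPM per kb). Before division by length *Slit2* (25.4 kb) had a mean of 56.9 CPM at 0 ppm, above *Slit3* (6.07 kb) with 16.2 CPM. *Ntn1* (12.9) was above *Ntn4* (3.37), *Nrp2* (16.1) above *Nrp1* (10.2), and *Unc5a* (11.6) and *Unc5d* (10.7) above *Dcc* (5.28 CPM per kb). Before division by length the mean of *Dcc* (13.2 kb) was 68.6 CPM at 0 ppm, above the 50.4 CPM of *Unc5a* (4.17 kb).

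**Figure D4:**
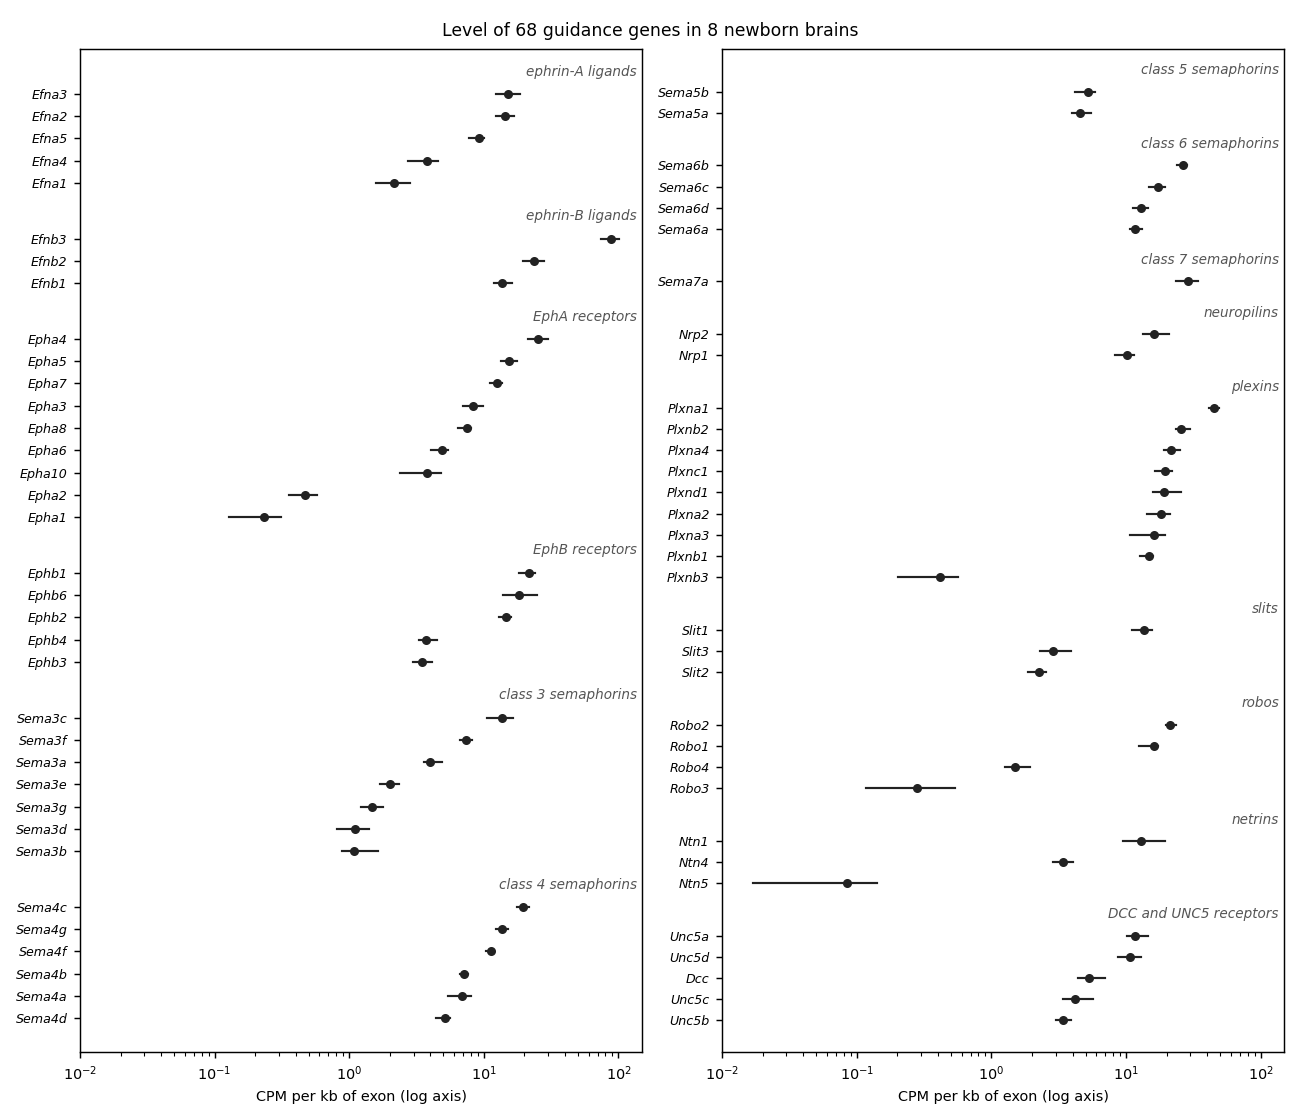
Level of each of the 68 guidance genes in CPM per kb of exon on a log axis, by family, with points for the mean of 8 brains and lines from the lowest to the highest brain. *Efnb3* is the highest at 88 and *Ntn5* the lowest at 0.0838, and most lines are short beside the distances between genes.

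Single brains differed in how often they held the extreme of a gene. The highest of the 8 values was in 50 ppm replicate 3 for 15 members and in 0 ppm replicate 3 for 13, and the lowest was in 50 ppm replicate 4 for 14 and in 50 ppm replicate 1 for 13. Of the control brains, 0 ppm replicate 4 had the lowest value for 2 members, and of the exposed brains 50 ppm replicate 2 had the highest for 3.

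The list of other guidance genes held co-receptors, adhesion molecules and intracellular effectors, such as the *Dpysl* genes downstream of semaphorins, *Trio* and *Dock1* downstream of DCC, and the *Srgap* genes downstream of robos. Of its 87 genes tested none passed after adjustment in edgeR's test, 33 log2 fold changes were positive and 54 negative, and the median was -0.02. Over all genes tested 51% were negative. At an unadjusted p under 0.05 there was 1 gene (1.15% of the list, against 3.75% of all genes), *Ngfr*, the p75 receptor for neurotrophins. The number was 6 without 0 ppm replicate 1, 4 without 50 ppm replicate 3 and 4 with the brainstem score. Over all genes the numbers in these settings were 856 of 22759, 808 of 22716 and 955 of 23113 (4.13%). The low share of the list with all brains was therefore not seen in every setting. *Ngfr* had 9.76, 16.6, 19.3 and 16 CPM in the control brains and 26.4, 22.2, 23.5 and 17.3 CPM in the exposed brains, of which 3 were above all controls. Its log2 fold change was 0.54 (standard error 0.16, adjusted p = 0.92 from edgeR).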

How the data were processed

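The deposited values are raw counts of reads on each gene for 8 whole-brain RNA-seq libraries, in 2 tables, 1 per parental genome. The authors trimmed the first bases, aligned the reads with STAR to the B genome (GRCm38, from Ensembl) or the C genome and counted them with htseq-count. Tool versions and the strand setting are not given in the sources used here. Columns were matched to pups by the labels. A gene was kept if at most 5 of the 8 libraries had no count for it, following the methods of the study. Libraries were normalized with TMM and tested with edgeR 4.0.16 (glmQLFit, glmQLFTest; R 4.3.3) with a model of treatment alone, adjusting by Benjamini-Hochberg over all genes with a threshold of 0.05. The standard error is the absolute log2 fold change over the square root of F. DESeq2 1.42.0 and limma 3.58.1 gave alternatives. The code was tested on simulated data. The deposited table for the C genome was used for 2 members whose identifiers could be named.

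Symbols, exon lengths and coordinates came from GENCODE M21 (GRCm38), which names 49326 of the 49585 identifiers, and upstream sequences from RefSeq. A regional score was the mean log2 CPM (prior count 2) of the tested genes of its list. Replicates are pups of separate litters, numbered 1 to 4 within a dose by accession order. Members with all 8 values are the 12 with the smallest p, those whose doses do not overlap, and the highest of each family per kb, while *Dcc*, *Robo4*, *Ntn5*, *Plxnc1*, *Plxnd1*, *Epha10* and others given by level were named after their values were seen. The members and gene lists were chosen with earlier results of these data known. Counting error limits genes at few reads, and 3 reads correspond to 0.098 to 0.132 CPM. Figures were drawn with matplotlib 3.10.9.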

Additional observations from a re-analysis of the deposited data

Results flagged for a closer look

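In 50 groups of 4 brains (25 genes at 2 doses), 2 held a brain far from the other 3 of its dose by Dixon's criterion, and chance gives about 1 in 20. *Efna2* had 27.3 CPM in 0 ppm replicate 3, below the 34 to 35.4 CPM of the other control brains. *Epha6* had 21.4 CPM in 0 ppm replicate 2, below the 25.1 to 25.7 CPM of the other control brains.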

How the results depend on the processing

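No guidance gene passed after adjustment under any of the 16 alternatives to the B-genome analysis: DESeq2's size factors, DESeq2, no filter, a filter that asks for 10 counts in 4 of the libraries, the robust fit, limma-voom with quality weights, either regional score, and each brain left out. The number of members higher at an unadjusted p under 0.05 was 2. It was 1 with DESeq2, the stricter filter, limma-voom or the forebrain score, 3 without the filter and 4 with the brainstem score. With 1 brain left out it was 1 to 4. The number lower was 6, and it was 5 with the stricter filter or the robust fit. It was 4 with the forebrain score and 3 with the brainstem score. With 1 brain left out it was 3 to 8 (3 without 0 ppm replicate 1 or 50 ppm replicate 4). Of the 23113 genes tested, 866 had an unadjusted p under 0.05 in either direction with treatment alone. The numbers were 955 with the brainstem score, 849 with the forebrain score, 649 with DESeq2 and 1130 with limma-voom. With 1 brain left out they ran from 729 of 22773 (50 ppm replicate 4) to 1155 of 22727 (0 ppm replicate 3). The number of other guidance genes was 1, 2 without the filter, with the robust fit, limma-voom or the forebrain score, 4 with the brainstem score, and 1 to 6 with 1 brain left out (6 without 0 ppm replicate 1, 4 without 50 ppm replicate 3, 3 without 0 ppm replicate 3 or 50 ppm replicate 1). The median log2 fold change of the members was -0.07 to -0.02 with 1 brain left out, -0.04 with the brainstem score and -0.01 with the forebrain score. Among the 25 members given by brain, the direction turned for *Plxnb3* (-0.04) and *Epha4* (0.11) with the brainstem score, and for *Epha4* (0.09) and *Ephb1* (0.03) with the forebrain score; over all 68 it turned in 18 and 16. With 1 brain left out it turned for *Efna3* (-0.18 to 0.03), *Ephb1* (-0.12 to 0.02), *Robo2* (-0.03 to 0.05), *Sema5b* (-0.13 to 0.02) and *Slit1* (-0.11 to 0.05). The cause was not tested. CPM without TMM factors moved no mean by more than its SD. No paired analysis was possible because the labels give no replicate numbers that pair the pups. Depth limits *Ntn5*, which had 1 to 9 reads in a brain, and exons on the other strand cover 23.4% of its exonic bases.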

Other observations

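Marker lists of other cell types were read in the same brains. The 12 meningeal genes summed to 749 to 909 CPM at 0 ppm and 924 to 1099 CPM at 50 ppm. Of them, 3 were higher at an unadjusted p under 0.05 by edgeR, where 2.31% of all genes were, and none lower. The list holds genes that the study picked from these libraries. The 10 endothelial genes summed to 308 to 371 CPM at 0 ppm and 310 to 376 CPM at 50 ppm, and none had an unadjusted p under 0.05. Blood genes ranged from 99.2 to 402 CPM over the 8 brains and skeletal muscle genes from 7.53 to 9.44 CPM, also with none. Of the 9 neuronal genes tested, 2 were higher at an unadjusted p under 0.05, where 2.31% of all genes were. These were *Nefl* (log2 fold change 0.48) and *Nefm* (0.61), both of which encode neurofilament proteins.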
